A study of Mus musculus with 6 samples.

Results

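Cadherins and protocadherins are cell surface proteins with repeated extracellular cadherin domains that bind calcium and join like partners on facing cells. Classical cadherins link to the actin cytoskeleton through catenins and hold adherens junctions together, also between astrocytes, neurons and blood vessel cells. Clustered protocadherins are made from the alpha, beta and gamma gene clusters, in which each variable exon has a promoter of its own and the choice of promoter gives a cell its set of isoforms. In the alpha and gamma clusters the variable exon is spliced to constant exons that all members of the cluster share. Astrocytes as well as neurons make gamma protocadherins, and astrocyte processes touch synapses where these proteins are found. Sox9 is a transcription factor that adult olfactory bulb astrocytes express.

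All genes whose symbol is Cdh followed by a number, or Pcdh followed by numbers or lower-case letters, were taken from the gene tables. They were 93 of 24421 genes, with 23 cadherins, 12 non-clustered protocadherins and 58 clustered protocadherins. The cadherins were 5 type I classical, 13 type II classical and 5 other genes. The non-clustered protocadherins were 4 of the delta-1 group, 5 of the delta-2 group and 3 others, and the clusters held 14 alpha, 22 beta and 22 gamma genes. In the GENCODE annotation of GRCm38 (mm10), 59 of the 93 genes could be placed on chromosome 18, which holds the 3 clusters and also Cdh2, Pcdh1 and Pcdh12. Pcdha10 and Pcdha11 of the alpha cluster had no single entry there and are left out of this count. The rule used symbols and no measured value.

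RNA-seq libraries had been made from 3 Sox9 KO mice, which were Sox9fl/fl, and from 3 control mice, which had no floxed allele and are named C57BL/6J or Sox9+/+. The mice were adult males, their strain is given as C57BL/6, and all 6 had received AAV-GFAP-iCre-P2a-TurboRFP in the olfactory bulb. In this virus the GFAP promoter, which is active in astrocytes, drives Cre recombinase and the red reporter TurboRFP, so the controls carried Cre as well. The sort, 4 weeks after injection, kept single cells by scatter and then those with TurboRFP, with no antibody to a cell type. The methods name 6 mice, from which 1 mouse for each library is inferred. The sorted cells were not measured again by cytometry, and the study judged their purity from cell type markers in the same RNA-seq data. The libraries held between 18242129 and 86906527 reads on genes. In the deposited values, the read counts of each library had been divided by its size factor. They are called normalized counts here, and 1 read was worth between 0.395 and 1.58 of them. Sox9 itself stood at 5185, 6562 and 4921 normalized counts in the controls and at 52.6, 64.3 and 57.7 in the KO libraries. All 3 KO libraries lay below all controls, in the direction of their labels. The astrocyte markers given below were lower as well, and deletion of Sox9 and fewer astrocytes cannot be told apart in this value.

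The sorted cells differed between the groups in the markers of several cell types. In the counts of this paragraph, lower and higher mean called so by the rule given in the next paragraph. By that rule 28.8% of all genes tested were called lower and 22.2% higher. All 12 astrocyte markers were lower in KO, and their summed level ranged from 503313 to 559041 in the controls and from 36600 to 47221 in KO. All 12 genes of a list shared by microglia and macrophages were higher, with sums of 193067 to 218395 in the controls and 791699 to 939125 in KO. Of 7 markers of border macrophages, in contrast, 4 were lower and 2 higher, with a median log2 difference of -0.67. Of 12 neuron markers, 10 were lower and none was higher, with sums of 26135 to 33154 against 4131 to 6695. All 6 markers of oligodendrocyte precursors were lower and so were 7 of the 8 oligodendrocyte markers, while of the 8 endothelial markers 4 were lower and 2 higher. Of the 8 mural cell markers 5 were lower and none higher, and of the 8 markers of olfactory ensheathing cells 7 were lower and none higher. Most markers of 2 further lists were not called. Of the 6 ependymal markers 2 were lower and none higher, and of the 7 leptomeningeal fibroblast markers 1 was lower and 1 higher. No gene of these lists was at 0 in all libraries, and the part of these differences in the results on cadherins and protocadherins was not tested. In bulk samples such as these, fewer cells of a type and less RNA per cell cannot be told apart.

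Most cadherin and protocadherin genes were lower in the KO libraries. A gene was tested where its mean over the 6 libraries was at least 1 normalized count, which held for 89 of the 93 genes. A gene was called where limma's p, adjusted over all genes tested, was under 0.05 and the difference on the scale of log2(normalized count + 1) was at least 1.5-fold. Of the 89 genes, 70 were called lower and 3 higher in KO, and 16 were not called. Over all 18413 genes tested, 28.8% were called lower and 22.2% higher, 51.0% in all. On the whole reads, edgeR called 67 of the 89 genes lower and 3 higher (27.2% and 23.6% of all genes), and DESeq2 called 68 lower and 3 higher (27.7% and 21.7% of all genes). The KO libraries were all below the controls for 73 of the 89 genes and all above them for 2, against 34.7% and 32.4% of all genes tested, or 67.2% in either direction. The median log2 difference of the 89 genes was -2.18, with a range from -4.21 to 1.21, and that of all genes tested was -0.07. Among all genes, another scaling changed the balance of calls, from 5299 lower and 4090 higher to 6595 lower and 2627 higher with totals made equal without the ribosomal transcript Rn45s, and to 4100 lower and 5380 higher with quantile normalization. The median of all genes then moved by -0.32 and by 0.27, and that of the 89 genes stood at -2.45 and -1.56.

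The summed level of all 93 genes was 61510 ± 3482 normalized counts in the controls and 9440 ± 1422 in KO (SD, n = 3), a 6.52-fold difference. The sums were 65310, 60747 and 58473 in the controls and 8148, 10964 and 9206 in KO. The non-clustered protocadherins showed the widest gap of the 3 families, with a sum 10.0-fold higher in the controls, before the cadherins with 7.47-fold and the clustered protocadherins with 3.70-fold. These ratios are of sums in which a few abundant genes weigh most, and the differences between families were not tested.

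**Figure D1:**
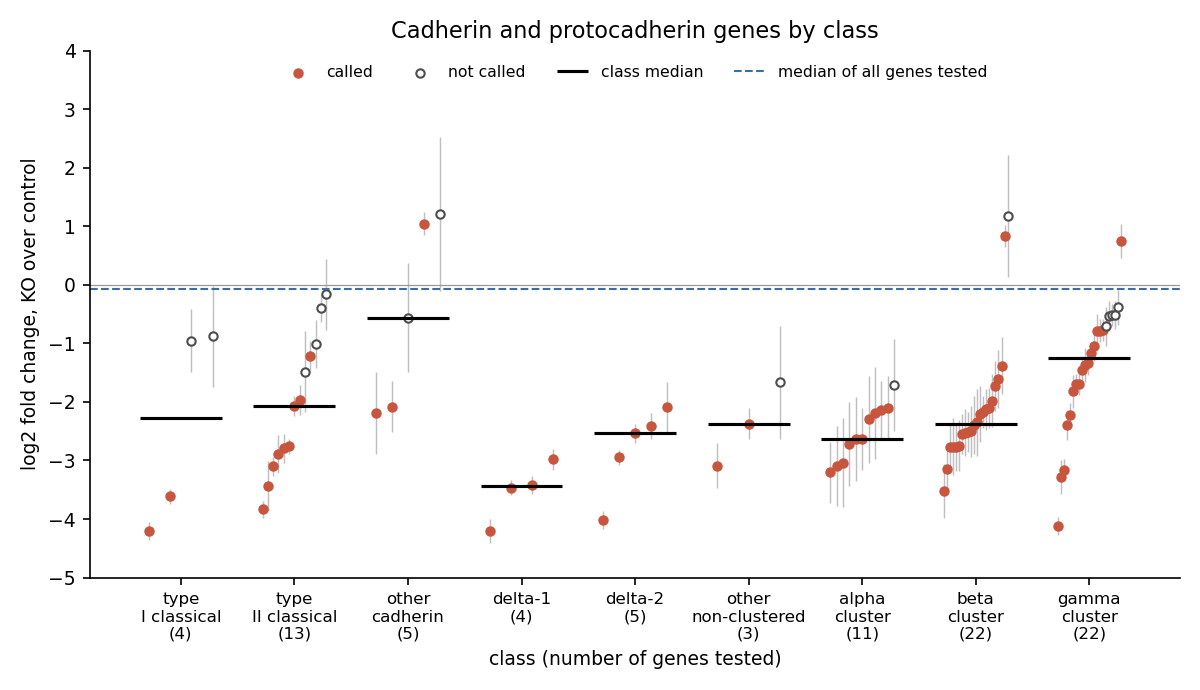
Log2 difference of each tested gene (KO over control, vertical axis) by class (horizontal axis, with the number of genes tested), where filled points are called genes, open points are genes not called, whiskers are 1 standard error and black bars are class medians. All classes except the other cadherins and the beta and gamma clusters lie wholly below the median of all genes tested (dashed line, -0.07). The gamma cluster spreads from -4.12 to 0.75.

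Per kilobase of exon not shared with another member of the families, Pcdhgc3 had the highest level in the controls, at 1724 ± 143 normalized counts per kilobase (SD, n = 3). Cdh2 followed with 1024 ± 114 and then Pcdh9 with 508 ± 41.5 and Pcdh10 with 445 ± 47.9. The next genes, Pcdh7 at 418, Cdh4 at 383 and Pcdh1 at 376 normalized counts per kilobase, followed Pcdh10 so closely that neighbours in the order differed by less than the larger of their SDs (34.4 to 68.0). In KO the order was another one. Pcdhgb2 stood first at 209 ± 72.9 normalized counts per kilobase, followed by Pcdhga5 at 130 ± 35.8, Pcdhgc3 at 101 ± 22.1, Pcdhga4 at 84.8 ± 25.9 and Cdh2 at 84.0 ± 12.7. From Pcdhga5 to Cdh2, neighbours again differed by less than the larger of their SDs. Pcdha10 and Pcdha11, which have no single annotated length, are not in this order.

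Of the type I classical cadherins, Cdh2 and Cdh4 were called lower and Cdh1 and Cdh3 were not called. Cdh2 encodes N-cadherin, the main classical cadherin of neural tissue. It was at 9307, 7918 and 7564 normalized counts in the controls and at 564, 706 and 763 in KO. All KO libraries lay far below the controls, with a log2 difference of -3.61 (SE 0.13, limma adjusted p = 1.3e-08). Cdh4, which encodes R-cadherin and lies on chromosome 2 (GRCm38, 179442431 to 179899373, plus strand), was at 3066, 2639 and 2629 in the controls and at 120, 177 and 155 in KO. Its difference of -4.21 (SE 0.16, limma adjusted p = 1.5e-08) was as large as that of Pcdh1 (-4.20), and these were the largest falls of the 89 genes. Without 1 library, the differences ranged from -4.33 to -4.06 for Cdh4 and from -4.41 to -4.02 for Pcdh1. The ranges of Pcdhgc3 (-4.27 to -3.94) and Pcdh10 (-4.19 to -3.89) overlapped these, so the order of these genes is not fixed.

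Cdh1, the E-cadherin of epithelia, did not separate the groups. It stood at 61.4, 39.2 and 26.8 normalized counts in the controls and at 8.93, 8.29 and 120 in KO, so that KO replicate 3 was the highest of all 6 libraries and the other KO libraries the lowest. The log2 difference was -0.88 (SE 0.87, limma adjusted p = 0.40), and without KO replicate 3 it was -2.10 and called (adjusted p = 0.0054). Cdh3, the P-cadherin, was at 68.7, 39.9 and 93.0 in the controls and at 15.9, 72.2 and 28.9 in KO. Here KO replicate 2 lay within the control range, the difference was -0.95 (SE 0.54, limma adjusted p = 0.15), and without that library it was -1.52 and called (adjusted p = 0.0199). Cdh15, the M-cadherin of muscle, was between 0 and 2.06 normalized counts and was not tested.

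Of the 13 type II classical cadherins, 9 were called lower and none higher, and all 13 had a difference below 0. The most abundant was Cdh11, best known from mesenchymal cells, with 2977, 2365 and 2437 normalized counts in the controls and 231, 339 and 342 in KO (log2 difference -3.10, SE 0.17, limma adjusted p = 1.2e-07). Cdh10 was at 2113, 1764 and 1638 in the controls and at 142, 128 and 114 in KO (-3.83, SE 0.15, limma adjusted p = 1.9e-08). The KO libraries of both genes lay far below the controls. Cdh20 was at 1412, 1244 and 1300 in the controls and at 182, 207 and 193 in KO, a log2 difference of -2.76 (SE 0.13). Cdh19, which is known from glia of peripheral nerves and their precursors, had the smallest difference of the 4 most abundant genes. It was at 1171, 1080 and 1239 in the controls and at 219, 276 and 352 in KO (-2.06, SE 0.17, limma adjusted p = 2.5e-06). The groups did not overlap for any of these 4 genes.

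The type II genes that were not called were Cdh5, Cdh7, Cdh8 and Cdh9. With totals made equal, Cdh5 and Cdh8 were called lower too, so that 11 of the 13 type II genes were. Cdh5 encodes VE-cadherin, the junctional cadherin of endothelial cells. It was at 155, 215 and 247 normalized counts in the controls and at 177, 119 and 172 in KO, with overlapping groups and a difference of -0.39 (SE 0.24, limma adjusted p = 0.185). The endothelial markers other than Cdh5 summed to between 1930 and 3269 in the controls and between 1718 and 2255 in KO, so these ranges overlapped as well. This sum joined 4 markers called lower, Slco1a4 among them, and 2 called higher, Flt1 and Kdr. With totals made equal, 5 endothelial markers were called lower and none higher. Cdh8 was lower in every KO library than in any control, with a difference of -1.01 and a limma adjusted p of 0.052.

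The other 5 cadherins had no common direction. Cdh13, the T-cadherin that is held to the membrane by a lipid anchor, was at 156, 147 and 183 normalized counts in the controls and at 32.8, 79.0 and 19.7 in KO (-2.08, SE 0.44, limma adjusted p = 0.0019). Cdh17, a cadherin of the intestinal epithelium, was called lower (-2.18, SE 0.70, limma adjusted p = 0.0199) on 10.2, 4.13 and 4.73 against 0, 0.395 and 1.52 normalized counts, which is 1 read or none in each KO library. Its call was lost without control replicate 1 (adjusted p = 0.0754) and without KO replicate 1 (adjusted p = 0.0707). Cdh26 was at 0, 2.75 and 6.30 in the controls and at 0, 5.13 and 54.7 in KO, so that its difference of 1.21 (SE 1.31) rested on KO replicate 3, and it was -0.28 without that library. KO replicate 3 was also the library with the high Cdh1 value.

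Cdh23, which forms the tip links of inner ear hair cells together with Pcdh15, was called higher. It was at 168, 132 and 162 normalized counts in the controls and at 322, 386 and 258 in KO, with all KO libraries above all controls (log2 difference 1.05, SE 0.20, limma adjusted p = 0.0011). Its partner Pcdh15 was at 367, 429 and 492 in the controls and at 41.7, 98.3 and 28.9 in KO, and was called lower (-3.09, SE 0.38, limma adjusted p = 5.0e-05). Cdh23 lies on the minus strand of chromosome 10 (GRCm38, 60302748 to 60696490). Within this span, on the plus strand, lies Vsir (60346851 to 60372684), which encodes an immune checkpoint protein of myeloid cells and is listed as 4632428N05Rik. It stood at 3972, 3292 and 3279 normalized counts in the controls and at 18637, 17971 and 15770 in KO (log2 difference 2.31). No source used here says whether the counting used the strand, but in the annotation no exon of Vsir overlaps an exon of Cdh23. The part of Vsir reads in the Cdh23 values was not tested.

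**Figure D2:**
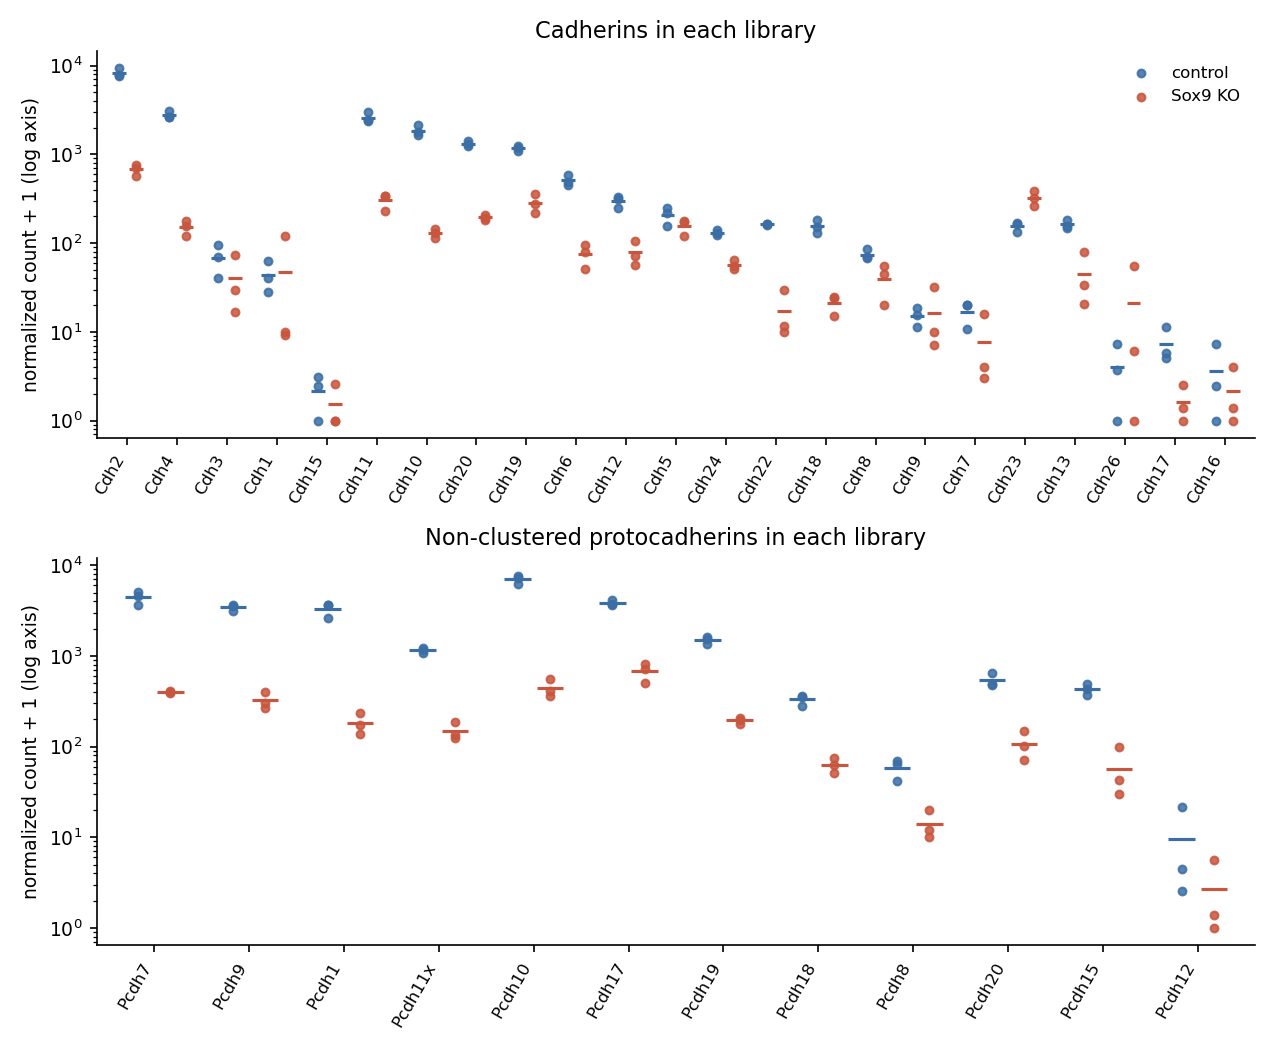
Normalized counts + 1 on a log axis for the 23 cadherins (top) and the 12 non-clustered protocadherins (bottom), with 1 point per library (control and Sox9 KO) and a bar at the group mean. Among the cadherins the KO points of Cdh23 lie above the controls and single high KO points stand out for Cdh1 (120) and Cdh26 (54.7), while 11 of the 12 protocadherins have all KO points below all controls.

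Of the 12 non-clustered protocadherins, 11 were called lower, none was called higher, and this count was 11 whichever library was left out. The delta-1 protocadherins are long adhesion proteins expressed in neural tissue, and all 4 fell. Pcdh1 was at 3688, 3620 and 2620 normalized counts in the controls and at 138, 236 and 170 in KO (-4.20, SE 0.20, limma adjusted p = 6.1e-08). Pcdh7 was at 5023, 4613 and 3677 in the controls and at 395, 408 and 390 in KO, a difference of -3.46 (SE 0.12). Pcdh9 was at 3120, 3636 and 3573 against 266, 403 and 304 (-3.42, SE 0.15). The X-linked Pcdh11x was at 1219, 1072 and 1168 against 122, 186 and 134 (-2.98, SE 0.17). The groups were far apart for each of the 4 genes, and their summed level was 12343 ± 1131 in the controls and 1051 ± 163 in KO (SD, n = 3), an 11.7-fold difference.

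The delta-2 protocadherins can recruit the WAVE complex, which regulates actin, through their cytoplasmic tails. All 5 fell, with a summed level of 12799 ± 689 in the controls and 1384 ± 236 in KO (SD, n = 3). Pcdh10 was the most abundant protocadherin of this group and lies on chromosome 3 (GRCm38, 45378398 to 45435623, plus strand). It was at 7706, 7270 and 6226 normalized counts in the controls and at 361, 551 and 407 in KO (-4.02, SE 0.15, limma adjusted p = 1.8e-08). Pcdh17 was at 3687, 3723 and 4119 against 501, 709 and 814 (-2.53, SE 0.16), and Pcdh19, an X-linked gene mutated in an epilepsy of girls, was at 1600, 1546 and 1348 against 179, 197 and 205 (-2.94, SE 0.13). The KO libraries of Pcdh17 kept a larger part of the control level than those of Pcdh10, with ratios of control to KO of 5.69 and 16.1. Pcdh18 was at 355, 364 and 282 in the controls and at 50.6, 61.6 and 74.4 in KO (-2.41, SE 0.23), and Pcdh8, the least abundant of the 5, had a difference of -2.09.

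Among the remaining non-clustered genes, Pcdh20 was at 484, 482 and 648 normalized counts in the controls and at 70.5, 148 and 102 in KO (-2.37, SE 0.26, limma adjusted p = 2.2e-05). Pcdh12, an endothelial protocadherin, was at 20.5, 3.44 and 1.58 against 0, 0.395 and 4.56. The groups overlapped and it was not called (-1.66, SE 0.96, limma adjusted p = 0.16).

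Of the 58 clustered genes, 55 were tested, 46 were called lower and 2 higher. In the alpha cluster 10 of 11 tested genes were called lower, with a median log2 difference of -2.63. With quantile normalization 6 of the 11 were, and Pcdha1, Pcdha5, Pcdha10 and Pcdha12 lost the call, while edgeR and DESeq2 each called 9. Pcdha4, Pcdha6 and Pcdha7 were listed at 0 in all 6 libraries. In the annotation these are the alpha genes whose exons overlap those of other genes on the same strand (Gm42416, Gm37013 and Gm37388). A value of 0 may therefore not mean that the gene had no reads. The gamma genes overlap the same genes on the same strand, however, and all 22 had reads in every library. The part of the overlaps in the values of 0 was not tested. The whole alpha cluster was weakly covered, with 141 to 388 reads per library in the controls and 23 to 177 in KO. Pcdhac2, a C-type isoform, was the most abundant alpha gene in every library. It was at 62.8, 95.7 and 106 normalized counts in the controls and at 7.94, 32.8 and 24.3 in KO (-2.14, SE 0.50, limma adjusted p = 0.0036). Pcdha11 was at 23.4, 42.7 and 29.9 against 3.97, 2.37 and 1.52 (-3.20, SE 0.52), Pcdha5 at 21.9, 28.2 and 18.9 against 2.98, 9.47 and 3.04 (-2.10, SE 0.55), and Pcdha9 at 16.1, 21.3 and 20.5 against 1.99, 3.55 and 1.52 (-2.63, SE 0.53). These 4 genes had no overlap between the groups. Pcdha1 had no read in any KO library and was at least 6.31-fold lower there, with the limit set at 3 reads over the KO group, which covers counting error only. The other C-type isoform, Pcdhac1, was at 8.77, 14.5 and 4.73 in the controls and at 2.98, 5.13 and 0 in KO and was not called (-1.72, SE 0.79, limma adjusted p = 0.082), but was without KO replicate 2 (-2.26, adjusted p = 0.0458).

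In the beta cluster, whose genes have 1 coding exon and no shared constant exons, 20 of 22 genes were called lower and 1 higher. The most abundant in the controls were Pcdhb16 and Pcdhb14. Pcdhb16 was at 281, 303 and 465 normalized counts in the controls and at 44.7, 125 and 82.0 in KO (-2.13, SE 0.35, limma adjusted p = 0.0004). Pcdhb14 was at 283, 244 and 440 against 38.7, 88.4 and 45.6 (-2.51, SE 0.34), and Pcdhb18 at 227, 212 and 240 against 15.9, 67.9 and 31.9 (-2.75, SE 0.44). For all 3 genes KO replicate 2 was the highest of the KO libraries and still lay below every control.

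Pcdhb22, the last beta gene along the chromosome, was called higher. It was at 178, 131 and 148 normalized counts in the controls and at 254, 280 and 276 in KO, with all KO libraries above all controls (log2 difference 0.83, SE 0.19, limma adjusted p = 0.0028). The difference was 0.51 and not called when totals were made equal without Rn45s. Pcdhb21, which it overlaps on the same strand, was called lower (-2.21, SE 0.47, limma adjusted p = 0.0022). Pcdhb1 had no read in the controls and in KO replicates 1 and 2, and 10.6 normalized counts in KO replicate 3.

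**Figure D3:**
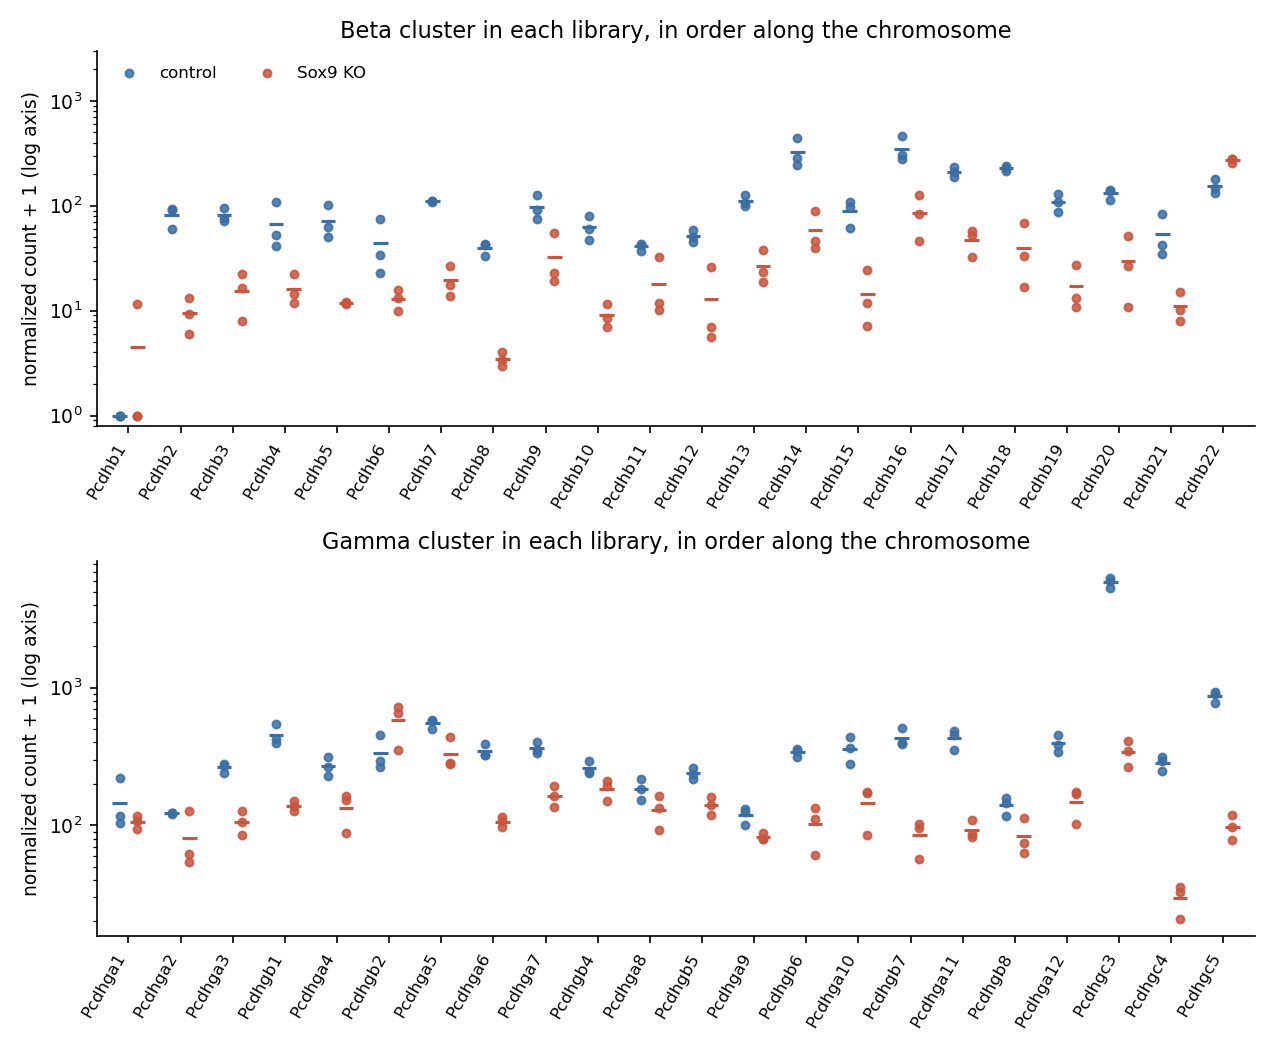
Normalized counts + 1 on a log axis for the beta cluster (top) and the gamma cluster (bottom), with genes in their order along the chromosome, 1 point per library (control and Sox9 KO) and a bar at the group mean. Pcdhb22 at the end of the beta cluster and Pcdhgb2 in the gamma cluster have KO means above the control means, and Pcdhgc3 has the widest gap of the gamma cluster.

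In the gamma cluster 16 of 22 genes were called lower and 1 higher, and the 3 C-type isoforms had the largest differences. Pcdhgc3 was at 6252, 5932 and 5299 normalized counts in the controls and at 262, 411 and 346 in KO (-4.12, SE 0.15, limma adjusted p = 1.8e-08). Pcdhgc5 was at 935, 772 and 892 against 77.4, 117 and 95.7 (-3.17, SE 0.19), and Pcdhgc4, an isoform on which the survival of neurons depends, at 311, 245 and 292 against 34.7, 19.7 and 31.9 (-3.28, SE 0.28). All 3 had control values far above those of KO. The 5 C-type isoforms of the alpha and gamma clusters summed to 7074 ± 488 in the controls and 490 ± 101 in KO (SD, n = 3), a 14.4-fold difference. Most of this sum is Pcdhgc3. The ratios of the alpha C-type isoforms, 4.06-fold for Pcdhac2 and 3.45-fold for Pcdhac1, were below the 5.69-fold ratio of the alpha cluster as a whole.

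The 19 A-type and B-type gamma isoforms summed to 5737 ± 136 in the controls and 2918 ± 515 in KO (SD, n = 3), a 1.97-fold difference, and their median log2 difference was -1.04. Of these, 13 were called lower, 1 higher and 5 neither way, while 9 were called lower with quantile normalization and 17 with totals made equal. Pcdhga5, the most abundant of them in the controls, was at 579, 573 and 503 normalized counts in the controls and at 281, 437 and 276 in KO (-0.76, SE 0.19, limma adjusted p = 0.0051). All KO libraries lay below the controls, but KO replicate 2 was close to them, and with quantile normalization its call was lost. The genes called neither way were Pcdhga1, Pcdhga2, Pcdhga8, Pcdhga9 and Pcdhgb4, with differences from -0.71 to -0.38, and all but Pcdhga1 were called lower with totals made equal. Pcdhgb4 passed the limma threshold on p (adjusted p = 0.038) but not that on size.

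Pcdhgb2 was called higher, on a weaker base than Cdh23 and Pcdhb22. It was at 266, 292 and 452 normalized counts in the controls and at 658, 728 and 349 in KO, so that KO replicate 3 lay below control replicate 3 and the groups overlapped (log2 difference 0.75, SE 0.28, limma adjusted p = 0.042). The call was lost without control replicate 1, control replicate 2, KO replicate 1 or KO replicate 2, with adjusted p between 0.12 and 0.151. It was also lost with totals made equal, at a difference of 0.51.

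The isoforms took different shares of the gamma cluster in the 2 groups. Pcdhgc3 held 46.7% (exact 95% binomial interval 45.7 to 47.7), 47.1% (46.4 to 47.9) and 43.6% (42.5 to 44.7) of the gamma reads in the controls. In KO it held 8.20% (7.27 to 9.20), 10.2% (9.65 to 10.8) and 11.8% (10.4 to 13.3), so that every KO library lay far below every control. Pcdhgb2 moved the other way, from 1.99%, 2.32% and 3.72% in the controls to 20.6%, 18.1% and 11.9% in KO, and was the largest isoform by reads in KO replicates 1 and 2. In KO replicate 3 it had 230 reads and Pcdhgc3 228, which do not differ beyond counting error. The intervals cover counting error only, and since the shares of a cluster sum to a fixed total, a lower share of Pcdhgc3 raises those of the other isoforms.

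**Figure D4:**
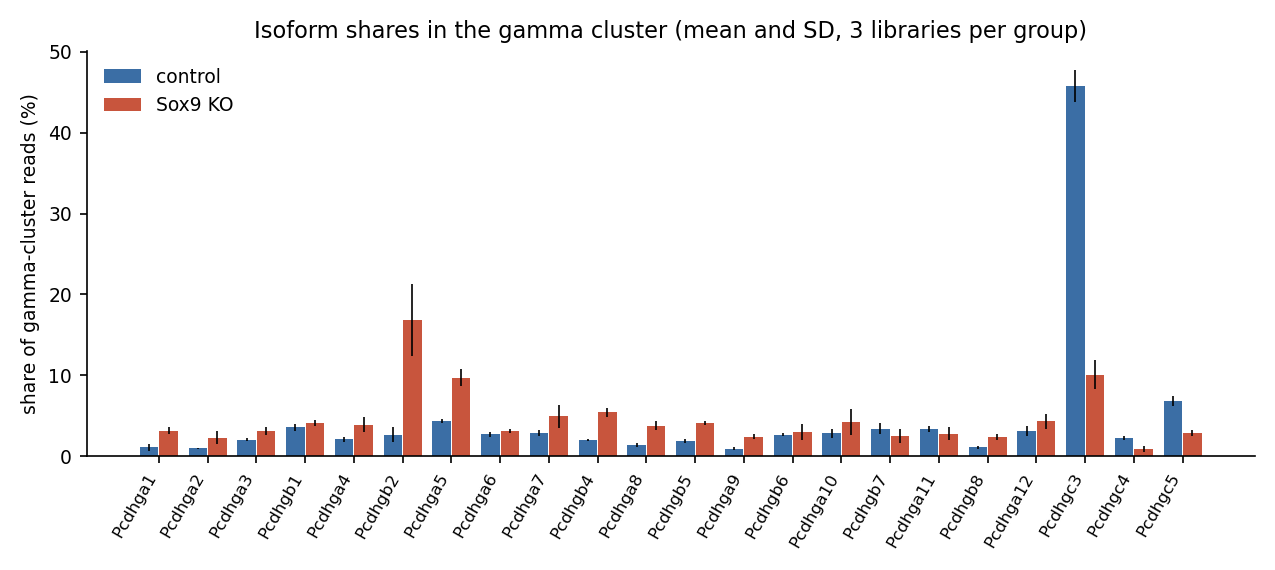
Share of the gamma cluster reads in percent (vertical axis, from 0) for each of the 22 isoforms in order along the chromosome, as the mean of 3 libraries per group with SD. Pcdhgc3 stands near 46% in the controls and near 10% in Sox9 KO, where Pcdhgb2 has the largest mean share.

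The evenness of isoform use was read from the effective number of isoforms, the exponential of the Shannon entropy of the shares, which equals the number of isoforms when all have the same share. In the gamma cluster it was 9.70 ± 0.48 in the controls and 17.5 ± 1.06 in KO (SD, n = 3), with the 22 isoforms detected in every library. In the beta cluster it went the other way, from 16.6 ± 0.69 to 10.4 ± 1.75. There Pcdhb22 took 46.8%, 29.1% and 37.9% of the beta reads in the KO libraries, against 6.19% ± 1.15 in the controls. In the alpha cluster it was 7.73 ± 0.85 and 5.05 ± 1.90, on 25, 177 and 23 reads in the KO libraries and 141 to 388 in the controls. The part of these few reads in the lower alpha value was not tested. The groups did not overlap in any of the 3 clusters, and these values are a description without a test.

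The genes that work with cadherins did not all follow them. Of 18 catenins and junction partners tested, 11 were called lower and 2 higher, with a median log2 difference of -0.86. Over all genes tested, 28.8% were called lower and 22.2% higher. Ctnnb1 (beta-catenin), which binds the tails of classical cadherins, was at 12567 ± 901 normalized counts in the controls and 12826 ± 1076 in KO (SD, n = 3, difference 0.03, not called). Ctnna1 (alpha-catenin of most tissues) differed by 0.12 and was not called, whereas the neural Ctnna2 and Ctnnd2 were called lower (-2.84 and -3.55). The junction scaffold Tjp1 differed by -0.40, under the 1.5-fold limit. Ctnnd1 (p120-catenin) was called higher (0.61), a call that was lost with totals made equal and with quantile normalization. The nectin gene Pvrl2 was called higher as well (1.23).

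Of the 11 genes of cadherin shedding and processing, 6 were called higher and 2 lower (22.2% and 28.8% of all genes tested). Their median was 0.64. The sheddases Adam17 and Adam10, which cut the extracellular parts of cadherins and other surface proteins, were called higher (1.22 and 1.10), as was Ncstn (0.97), a subunit of gamma-secretase. The proprotein convertase genes Pcsk6 and Pcsk5 were called lower (-5.49 and -1.90). With totals made equal, 5 genes were called higher, and with quantile normalization the call of Pcsk5 was lost.

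Of 15 tested genes that take part in protocadherin promoter choice and chromatin looping, 8 were called higher and none lower. The shares over all genes tested were 22.2% higher and 28.8% lower. The median of the 15 genes was 0.59. Nipbl, which loads cohesin onto DNA, was at 6780 ± 283 normalized counts in the controls and 15592 ± 110 in KO (SD, n = 3), and the cohesin subunit genes Stag2 and Stag1 differed by 1.06 and 0.92 on the log2 scale. Ctcf, whose protein binds the clustered promoters, differed by 0.62 and was not called with totals made equal or with quantile normalization. With totals made equal, 6 of the 15 genes were called higher. With quantile normalization 6 were, and Stag1 lost its call.

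In the WAVE complex and protocadherin signalling, 7 of 13 genes were called lower and 6 higher (28.8% and 22.2% of all genes tested). With totals made equal 4 were called higher, and with quantile normalization 3. Abi1 and Brk1 lost their calls with either scaling. Nckap1l, the form of the Nap1 subunit that is used by blood cells, was at 7460 ± 309 normalized counts in the controls and 28056 ± 2040 in KO (SD, n = 3, difference 1.91). Its counterpart Nckap1, which most other cells use, was called lower (-2.85). Likewise Wasf2 was called higher (3911 against 8990 normalized counts) and Wasf3 and Wasf1 lower (-4.67 and -2.74), and Cyfip1 higher (0.96) and Cyfip2 lower (-2.07). The call of Cyfip1 was lost with quantile normalization. These pairs moved beside the markers of microglia and macrophages and of astrocytes and neurons given above, whose part in them was not tested.

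Of 20 tested genes of the wider cadherin superfamily, 13 were called lower and none higher (28.8% and 22.2% of all genes tested). Their median was -1.82. Fat1, a giant cadherin, was at 14952 ± 783 normalized counts in the controls and 1703 ± 338 in KO (SD, n = 3, difference -3.15). Fat3, of the same subfamily, differed by -1.82 and the synaptic calsyntenin Clstn1 by -1.33. The 7 genes not called were 3 cadherin-related genes and 4 desmosomal cadherins.

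**Figure D5:**
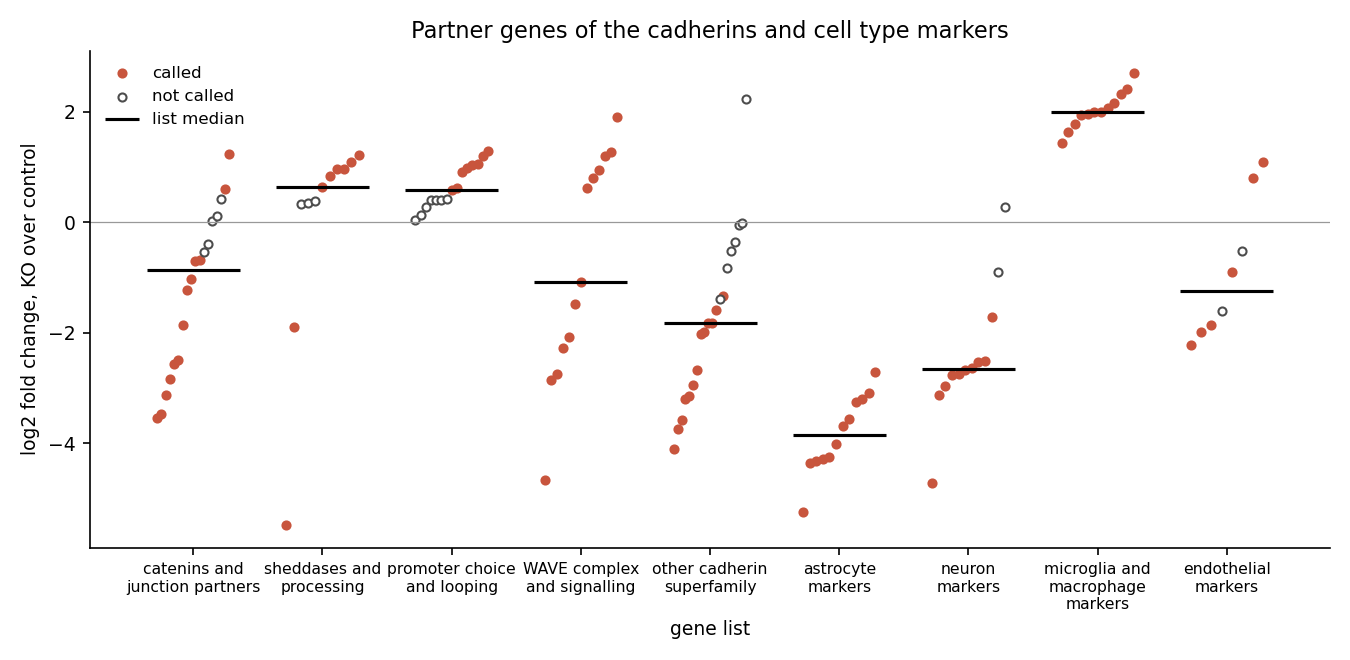
Log2 difference (KO over control, vertical axis) of each tested gene in 5 lists of partner genes and 4 lists of cell type markers (horizontal axis), with filled points for called genes, open points for genes not called and bars at the list medians. The shedding and looping lists have medians above 0 (0.64 and 0.59), the cadherin superfamily lies mostly below 0, and the microglia and macrophage markers have the highest and the astrocyte markers the lowest median (-3.85).

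Promoters were searched for the SOX-type motifs AACAAT and AACAAAG, since SOX proteins bind such sequences, in the 250 bases before the transcription start on both strands. The RefSeq promoters of GRCm38.p6 matched 22 of the 93 genes, with 25 start sites, and those of the clusters were not analysed here. Either motif was found at 3 of the 25 sites (12%), against 13.8% of 32851 promoters of all genes. AACAAT was found at none of them, against 9.42%, and AACAAAG at 3, against 5.03%. The 3 matches follow, with the motif in capitals, each 5′ to 3′ on the strand of its gene, because they are the only ones in this search.
Cdh6: tgggcctctgtAACAAAGtcctcctctctt
Pcdh8: ggagtttttaaAACAAAGgaaagattccct
Cdh26: accaaccaagaAACAAAGaaacaaaaccct
The window of Cdh6 is chr15:13173710-13173739 (minus strand), with the motif 53 to 47 bases before the start, that of Pcdh8 is chr14:79771472-79771501 (minus strand), 178 to 172 bases before the start, and that of Cdh26 is chr2:178430417-178430446 (plus strand), 87 to 81 bases before the start. Cdh6 was called lower (-2.79, SE 0.25), Pcdh8 was called lower and Cdh26 was not called. The matched genes with the largest falls, Pcdh10 and Cdh10, had neither motif in these windows. A match says that the letters are there and not that a protein binds.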

How the data were processed

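RNA-seq was analysed in TurboRFP-positive olfactory bulb cells of 3 control and 3 Sox9 KO mice. Per the labels, the authors used STAR 2.5.0a, mm10 and DESeq2 1.20.0. Reads per gene had been counted by the authors with GenomicAlignments. No source used here gives the gene annotation, the mode of counting or the use of strand. The deposited signal values, named RPM, are counts of reads over a size factor of the library, since each value lay within 0.01 read of a whole number of reads. The smallest step is 1 read, and depths differed between libraries, which limits genes with few reads.

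Genes with a mean of at least 1 were compared by limma 3.58.1 under R 4.3.3, after adding 1 and taking log2, with a variance trend, two-sided p and Benjamini-Hochberg adjustment over all genes. edgeR 4.0.16 (quasi-likelihood) and DESeq2 1.42.0 were run on the whole reads. Other pseudocounts, filters, scalings, a replicate block and leaving out each library were also tried. Since all alpha or gamma genes share exons, and Pcdhb21 and Pcdhb22 overlap, reads of shared parts may be divided or dropped by the counting. Levels per kilobase used exons of GENCODE (GRCm38) that no other member has. The study's methods name 6 mice, and 1 mouse for each library is inferred from the number of libraries.

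The members and lists were chosen with earlier results of these data known. Genes described were the 4 with the highest mean in each class, all C-type isoforms, all members called higher and the 3 largest falls, and in the partner lists the 3 with the highest mean and those called against the majority of the list. Other genes named (such as Cdh5, Cdh6, Cdh8, Cdh15, Pcdh8, Pcdha1, Pcdha4, Pcdha6, Pcdha7, Pcdhb1, Pcdhb21, Pcdhga1, Pcdhga4, Pcdhgb4, Ctnna1, Ctnna2, Ctcf, Vsir) were chosen after their values were seen.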

Additional observations from a re-analysis of the deposited data

How the results depend on the processing

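The count of genes called lower (70) was between 57 (quantile normalization) and 76 (equal totals) over 18 alternatives, with 67 by edgeR and 68 by DESeq2. Leaving out 1 library gave 64 to 76 genes called lower, 2 to 3 called higher, 12 to 16 cadherins, 41 to 49 clustered and 11 non-clustered protocadherins called lower, and a median log2 difference from -2.46 to -1.94. The median was -1.80 with a pseudocount of 5 and -1.56 with quantile normalization. With totals made equal without Rn45s, 1 gene (Cdh23) was called higher in place of 3. Of the 37 genes described by rule, 9 changed direction or call under some alternative. The difference of Cdh1 changed sign to 0.057 by edgeR and 0.080 by DESeq2, and that of Cdh26 lay between -0.28 (without KO replicate 3) and 2.62 as libraries were left out. Calls of Pcdha5 and Cdh17 were also lost with quantile normalization, and the call of Pcdhgb2 without a filter on low values and without the variance trend. The causes were not tested. The replicate numbers did not pair the samples (correlations of -0.05, -0.01 and -0.01 between libraries of the same number), and with them as a replicate block 69 genes were called lower and 2 higher, 13 cadherins, 45 clustered and 11 non-clustered protocadherins were called lower, and Pcdhgb2 was not called (adjusted p = 0.0638). Genes with a few reads per library, most of the alpha cluster among them, are limited by depth.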
